A study of Mus musculus with 56 samples.

Results

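The 40 genes described here encode the enzymes that feed and run the tricarboxylic acid (TCA) cycle and those that bring fatty acids into mitochondria and oxidise them. They were chosen by symbol and pathway, with earlier results of these data known, and all 40 were found in the count table (23418 symbols), in the single-cell matrix (27998 genes) and in the FPKM tables (23356 symbols). The TCA group holds 23 genes, from the pyruvate dehydrogenase complex to malate dehydrogenase and pyruvate carboxylase. The fatty acid oxidation group holds 17 genes, from the acyl-CoA synthetases and the carnitine shuttle to the electron carriers.

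In the TCA cycle, acetyl-CoA from pyruvate or from fatty acids is joined to oxaloacetate and oxidised stepwise, and the electrons pass to the respiratory chain. In mitochondrial beta-oxidation, fatty acids are activated to acyl-CoA, carried through the inner membrane as carnitine esters and shortened to acetyl-CoA, which enters the same cycle. In macrophages, among which microglia are counted, both routes are known to be rearranged with activation, and intermediates such as citrate, succinate and itaconate act as signals.

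All samples came from mice and were cultured or sorted as microglia, the macrophages of the brain. Primary cultures were made from wild-type B6 mice of postnatal days 5 to 8 by CD11b bead selection, kept with the growth factor M-CSF for 7 to 9 days, and left in medium (n = 7) or given the cytokine IL-33 at 200 ng/ml for 3 h (n = 7). The protocol also names 1 h of 0.2 uM GSK-J4, an inhibitor of histone demethylases, without tying it to particular cultures. Tau-GFP plus (n = 8) and Tau-GFP negative (n = 8) microglia came from the cortex of B6/129 carriers of Mapttm1(EGFP)Klt, a knock-in that puts GFP under the promoter of the neuronal gene Mapt; the design text calls the GFP-positive cells pro-phagocytic. The labels give these animals as day 10 and the design text as day 9. Single cells, gated as CD45int CD11bint, came from the cortex of B6 mice in 2 libraries per group, which were wild type at day 9 (P9) and at day 28 (P28), and P9 mice labelled ST2 Het or ST2 KO for the IL-33 receptor. TMRM high (n = 10) and TMRM low (n = 8) microglia were sorted from P9 cortex of B6/C57 mice by a dye that collects in mitochondria with a membrane potential. Nothing in the labels says whether the libraries of a group came from separate animals, pools or cultures, so p-values measure only the spread between these libraries.

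Libraries of the count table held 7709047 to 11826389 expected counts, and the depth behind the FPKM values is unknown. The single-cell matrix gave 14380 microglia-like cells in 13 of 17 clusters after filtering, and pairs of libraries shared at most 14 cell barcodes. The design text states 9391 P9 and P28 cells, where the wild-type libraries held 11424 barcodes, 11276 after filtering and 10485 microglia-like cells. Il1rl1, the gene of ST2, had 5.45 and 6.72 CPM in the ST2 Het libraries and 7.35 and 6.18 CPM in the libraries labelled ST2 KO. This assay reads the 3' end of transcripts and the deleted part of the gene is not given in the sources used here, so these levels do not check the labels. Among the bulk libraries, 2 TMRM low and 2 Tau-GFP plus libraries stood apart by transcripts of other cell types, as given beside the results they touch. In the cultures the summed microglia markers were low (7538 to 8524 CPM in medium against 58189 to 71313 CPM in Tau-GFP negative cells) and the summed monocyte markers, Lyz2 and Fn1 among them, were high (57985 to 64445 against 217 to 348 CPM).

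RefSeq promoter sequences (build GRCm38.p6, 250 bases before to 50 after a start site) were at hand for 37 of the 40 genes, and 3 motifs were searched on both strands. GCGCNTGCG, the core of the site of NRF1 (a factor known to bind promoters of nuclear genes for mitochondrial proteins), was found in 7 of 21 TCA genes (33.33%) and 3 of 16 fatty acid oxidation genes (18.75%), against 7.12% of all 27025 genes in the table. A site of oestrogen-related receptors, TNAAGGTCA, was found in 1 of 21 and 0 of 16, against 1.43% of all genes. CACGTG, an E-box, which reads the same on both strands, was found in 2 of 21 and 0 of 16, against 8.09%. A match describes these letters only, no binding was measured, and no test was made of the shares. The stretches below show where the NRF1 core lies in 5 genes that are followed through the results, read 5' to 3' on the strand of the gene, with the matched letters in capitals. They lie at chr13:74350241-74350367 (minus strand, 3 matches, ending at the start site), chr9:50603889-50603957 (minus strand), chrX:160138562-160138630 (minus strand), chr3:79628856-79628925 (minus strand, a match on each strand) and chr3:153944764-153944832 (minus strand).
Sdha: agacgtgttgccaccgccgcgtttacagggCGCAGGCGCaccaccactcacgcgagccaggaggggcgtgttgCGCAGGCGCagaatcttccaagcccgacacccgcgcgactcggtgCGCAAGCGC
Sdhd: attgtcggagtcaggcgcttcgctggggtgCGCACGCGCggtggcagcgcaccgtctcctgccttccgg
Pdha1: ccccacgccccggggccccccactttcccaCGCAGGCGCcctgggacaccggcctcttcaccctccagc
Etfdh: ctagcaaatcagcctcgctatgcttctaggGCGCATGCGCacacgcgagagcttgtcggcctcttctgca
Acadm: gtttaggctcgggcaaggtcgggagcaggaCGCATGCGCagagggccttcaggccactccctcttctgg
The first match starts 97 bases before the start site in Sdha, 78 in Sdhd, 170 in Pdha1, 128 in Etfdh and 159 in Acadm. Sdha alone of the 5 has matches at separate places.

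Levels of different genes were ranked per length in FPKM or per transcript end in UMI counts. CPM of the full-length count table are not divided by length, so a ratio of genes or of summed genes on that scale is used only to compare groups. In TMRM high cells the most abundant members on the FPKM scale were Sdhb (144.8 ± 8.26, mean ± SD, n = 10), the iron-sulfur subunit of succinate dehydrogenase, and Etfb (139.0 ± 10.5), the beta chain of the electron transfer flavoprotein that takes electrons from acyl-CoA dehydrogenases. Idh2 (126.9 ± 7.51), the mitochondrial NADP-dependent isocitrate dehydrogenase, Idh3g (124.1 ± 8.22), a subunit of the NAD-dependent enzyme, and Mdh2 (121.7 ± 11.3), the mitochondrial malate dehydrogenase, followed. Etfb and Idh2 lay further apart than either SD, and the other neighbours among these 5 genes differed by less than their spread. The least abundant members were Acsl4 (1.97 ± 0.540, n = 9), Pcx (2.49 ± 0.837) and Dlat (5.50 ± 0.573). Counted by UMIs in P9 wild-type microglia-like cells, Idh2 (318.5 CPM on average), Mdh1 (268.9), Etfb (264.5), Mdh2 (209.0) and Sdhb (190.0) led, and Pcx (2.42) was again lowest. Pcx encodes pyruvate carboxylase, which refills oxaloacetate. Only 134 UMIs of it were counted in 57128924 UMIs of all microglia-like cells, so its single-cell values are coarse.

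IL-33 was compared with medium to ask which genes the cytokine changes in cultured microglia within hours. Few members of either pathway changed. Pcx and Idh3a of the TCA group and the acyl-CoA synthetases Acsl1 and Acsl4 rose, and Hadh, the short-chain 3-hydroxyacyl-CoA dehydrogenase, fell. With edgeR's quasi-likelihood test (Benjamini-Hochberg adjusted p under 0.05, here "called"), 2 of 23 TCA genes were higher and 0 lower, and 2 of 17 fatty acid oxidation genes were higher and 1 lower, against 4.21% higher and 3.5% lower of all genes tested (7.71% in either direction). The median log2 fold change was 0.059 over the TCA genes and -0.041 over the fatty acid oxidation genes, beside -0.0078 over all genes tested.

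Pcx ranged from 4.79 to 10.9 CPM (median 8.55) in medium and from 11.01 to 18.8 CPM (median 12.9) with IL-33, a fold change on the log2 scale of 0.77 ± 0.16 (SE), adjusted p = 0.00347. The 2 sets of libraries did not overlap, though the gene stays among the least counted of the group. Idh3a, the catalytic subunit of the NAD-dependent isocitrate dehydrogenase, ranged from 74.6 to 86.5 CPM (median 81.9) in medium and from 88.3 to 97.3 CPM (median 95.2) with IL-33, a fold change on the log2 scale of 0.22 ± 0.045 (SE), adjusted p = 0.00336. These ranges did not overlap either, while the cycle's entry enzyme Cs (log2 fold change 0.086 ± 0.04 (SE), adjusted p = 0.242), citrate synthase, and Ogdh (0.015 ± 0.05 (SE), adjusted p = 0.922), the 2-oxoglutarate dehydrogenase, were not called.

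Acsl1, a long-chain acyl-CoA synthetase that activates fatty acids at the outer membrane, ranged from 43.7 to 53.6 CPM (median 49.3) in medium and from 64.04 to 84.8 CPM (median 79.2) with IL-33, a fold change on the log2 scale of 0.66 ± 0.065 (SE), adjusted p = 8.44e-07. Acsl4, a synthetase that prefers arachidonic acid, ranged from 79.7 to 91.2 CPM (median 81.6) and from 93.8 to 120.5 CPM (median 104), a fold change on the log2 scale of 0.35 ± 0.057 (SE), adjusted p = 0.000279. Every IL-33 library lay above every medium library for both genes. Hadh ranged from 50.3 to 56.8 CPM (median 54.6) in medium and from 42.95 to 51.6 CPM (median 45.2) with IL-33, with some overlap (fold change on the log2 scale of -0.22 ± 0.052 (SE), adjusted p = 0.0103). The carnitine palmitoyltransferases that admit the activated acids did not pass the test, with -0.059 ± 0.058, adjusted p = 0.665 for Cpt1a and 0.089 ± 0.08, adjusted p = 0.627 for Cpt2.

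Around the cycle, 2 of 15 tested neighbour genes were higher and 1 lower. Irg1, whose product makes itaconate from the cycle intermediate cis-aconitate, rose from 139 ± 38.9 to 461 ± 58.2 CPM (mean ± SD, n = 7 each; log2 fold change 1.73 ± 0.13, adjusted p = 3.37e-08). At pyruvate entry, where 1 of 9 tested genes was higher and 1 lower, Pdk1, a kinase that restrains pyruvate dehydrogenase, rose from 94.7 ± 6.19 to 112 ± 11.96 CPM (adjusted p = 0.0183) and Mpc1, a subunit of the mitochondrial pyruvate carrier, fell from 143 ± 12.1 to 119.5 ± 10.3 CPM (adjusted p = 0.00694). Among 18 tested genes of fatty acid supply, 1 was higher (Acsl5) and 2 lower, the fatty acid binding proteins Fabp4 and Fabp5. Fabp5 fell from 597 ± 35.5 to 475 ± 40.5 CPM (adjusted p = 0.000188). Of 10 peroxisomal genes tested, 0 were higher and 1 lower, Abcd2, a transporter of very long acyl chains.

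ST2 KO was compared with ST2 Het to ask what the receptor of IL-33 contributes to microglia at P9 in the cortex. No member was called in either direction by edgeR, where 0.302% of all genes were called higher and 0.293% lower (0.595% in either direction). At an unadjusted p under 0.05, 1 TCA and 1 fatty acid oxidation gene were found, beside 614 higher and 540 lower of all 11599 genes tested. DESeq2 called 0 members, with 0 and 1 at an unadjusted p under 0.05, beside 261 higher and 167 lower of 11599 genes. The median log2 fold change was 0.025 over the TCA genes and -0.028 over the fatty acid oxidation genes, beside -0.0010 over all genes tested. The 5 other lists of pathway genes also had 0 called members.

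The members with the smallest p were Sucla2, a subunit of succinyl-CoA synthetase, and Acadl, the long-chain acyl-CoA dehydrogenase. Sucla2 had 46.7 and 45.2 CPM in the ST2 Het libraries and 36.4 and 42.04 CPM in those labelled ST2 KO (fold change on the log2 scale of -0.22 ± 0.10 (SE), adjusted p = 0.497). Acadl had 30.7 and 33.8 CPM and 24.8 and 24.4 CPM (fold change on the log2 scale of -0.39 ± 0.11 (SE), adjusted p = 0.213). Neither gene was called. Their libraries did not overlap between the groups, but with 2 libraries per group such a gap is common even without a difference. How often such gaps occurred over all genes was not computed, so no weight is given to them among the 40 members. The genes that moved in culture gave no call here, with 0.035 ± 0.083, adjusted p = 0.93 for Idh3a, -0.22 ± 0.15, adjusted p = 0.717 for Acsl1 and 0.15 ± 0.14, adjusted p = 0.805 for Acsl4. In simulated data with known changes, this comparison recovered 8.2% of the smallest fold changes tried and 49.1% of the next larger ones. The lack of calls therefore does not show that changes as small as those of Idh3a and Acsl4 in culture were absent. Pcx, at 1.47 and 4.40 CPM and 2.95 and 3.08 CPM, was too thinly counted for a difference of the size seen in culture to be detectable at this depth (SE 0.50).

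P28 was compared with P9 to follow microglia from the postnatal to the young adult cortex. Most of the TCA group and both chains of the electron transfer flavoprotein were lower at P28, while the acyl-CoA synthetases Acsl1 and Acsl4 were higher. In the TCA group, 0 of 23 genes were higher and 17 lower (73.9%). In the fatty acid oxidation group, 3 of 17 were higher (17.6%) and 9 lower (52.9%). Of all genes tested 27.4% were higher and 26.2% lower (53.6% in either direction). The median log2 fold change was -0.52 over the TCA genes and -0.25 over the fatty acid oxidation genes, beside 0.056 over all genes tested. Summed over the group, TCA transcripts took 2127 to 2172 CPM at P9 and 1462 to 1487 CPM at P28, and fatty acid oxidation transcripts 1012 to 1050.0 and 753 to 761 CPM.

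**Figure D1:**
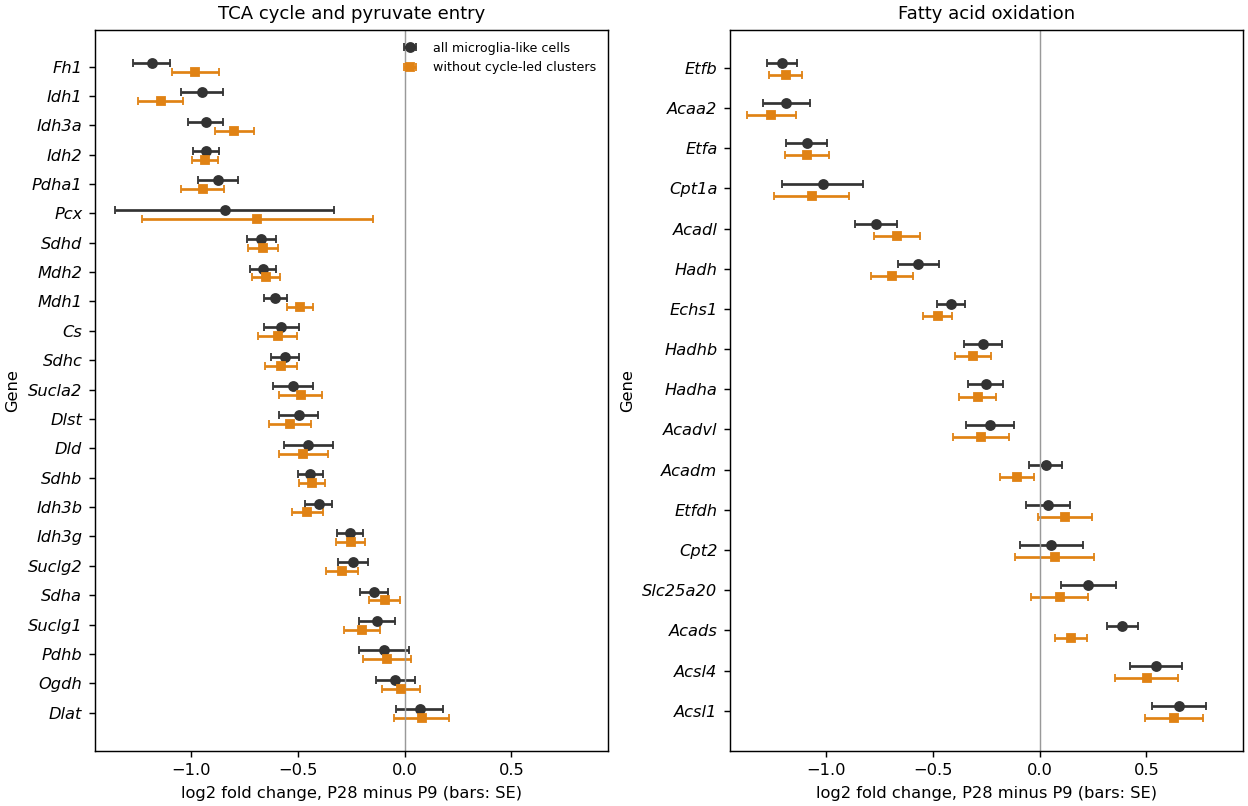
Log2 fold change of each member between P28 and P9 microglia-like cells (x axis; bars are SE, 2 libraries per age), in all such cells (circles) and without the clusters led by cell cycle genes (squares). Etfb and Fh1 lie near -1.2 in all cells, Acsl1 and Acsl4 lie above 0, and Acads shifts from 0.39 to 0.15 when the cycle-led clusters are left out.

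Fh1, fumarate hydratase, had 43.8 and 42.9 CPM at P9 and 19.1 and 18.98 CPM at P28 (fold change on the log2 scale of -1.18 ± 0.087 (SE), adjusted p = 1.12e-07). All 3 kinds of isocitrate dehydrogenase fell. Idh1, the cytosolic and peroxisomal enzyme, had 58.5 and 56.2 CPM and 32.4 and 26.9 CPM (-0.95 ± 0.10, adjusted p = 2.67e-06). Idh2 had 331 and 306 CPM and 166 and 168 CPM (-0.93 ± 0.06, adjusted p = 3.24e-08). Idh3a had 57.3 and 58.5 CPM and 32.01 and 28.7 CPM (-0.93 ± 0.081, adjusted p = 5.54e-07). At each of these genes the P28 libraries lay below both P9 libraries. Pdha1, the catalytic alpha subunit of pyruvate dehydrogenase, had 46.2 and 47.98 CPM and 27.1 and 24.2 CPM (-0.87 ± 0.093, adjusted p = 3.84e-06). Cs had 48.6 and 49.3 CPM and 31.4 and 34.2 CPM (-0.58 ± 0.082, adjusted p = 5.34e-05), and Mdh2 209.7 and 208 CPM and 129 and 135 CPM (-0.66 ± 0.059, adjusted p = 6.95e-07).

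Not every enzyme of the cycle was called. Ogdh had 42.1 and 43.2 CPM at P9 and 39.98 and 42.8 CPM at P28 (fold change on the log2 scale of -0.043 ± 0.091 (SE), adjusted p = 0.71), an overlap of the 2 ages. Of succinate dehydrogenase, whose 4 subunits form respiratory complex II, Sdhd, Sdhc and Sdhb were called lower (log2 fold changes -0.67, -0.56 and -0.44), and Sdha, the flavoprotein, was not (-0.14 ± 0.065, adjusted p = 0.0814). Sdha passed the test with DESeq2-type scaling in edgeR (adjusted p = 0.0401), when only the 4 wild-type libraries were fitted (0.0262), and without P9 replicate 2 (-0.21, 0.0457). The subunits Sdhb, Sdhc and Sdhd lie outside the rule for named genes and were named after their values were seen, to give the complex whole.

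Among the fatty acid oxidation genes, the 2 chains of the electron transfer flavoprotein fell together. Etfb had 269.7 and 259 CPM at P9 and 109 and 120.1 CPM at P28 (fold change on the log2 scale of -1.21 ± 0.07 (SE), adjusted p = 1.06e-08). Etfa had 83.8 and 85.5 CPM and 38.6 and 40.8 CPM (-1.09 ± 0.095, adjusted p = 5.53e-07). Their partner Etfdh, which passes the electrons to ubiquinone, was not called (0.038 ± 0.10, adjusted p = 0.786). Acaa2, the last enzyme of a beta-oxidation turn, had 50.5 and 48.1 CPM and 21.2 and 22.1 CPM (-1.19 ± 0.11, adjusted p = 1.14e-06). Cpt1a, the carnitine palmitoyltransferase of the outer membrane and the controlled step of entry, had 14.3 and 16.1 CPM and 7.70 and 7.27 CPM (-1.02 ± 0.19, adjusted p = 0.000567). For these 4 called genes both P28 libraries lay below both P9 libraries.

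The entry enzymes did not move as one. Acsl1 had 11.99 and 12.2 CPM at P9 and 18.1 and 19.9 CPM at P28 (fold change on the log2 scale of 0.65 ± 0.13 (SE), adjusted p = 0.000685). Acsl4 had 12.6 and 13.5 CPM and 19.7 and 18.3 CPM (0.54 ± 0.12, adjusted p = 0.00229), a call that DESeq2 did not give (adjusted p = 0.0631). Cpt2, of the inner membrane, was not called (0.053 ± 0.15, adjusted p = 0.782). Acads, the short-chain acyl-CoA dehydrogenase, had 93.8 and 96.5 CPM and 123 and 126 CPM (0.39 ± 0.073, adjusted p = 0.00061). Acadm, the medium-chain enzyme, was not called (0.028 ± 0.077, adjusted p = 0.777). Hadha, the alpha chain of the trifunctional protein, was called (-0.25 ± 0.082, adjusted p = 0.0187), and the call was lost without P28 replicate 2 (-0.15, adjusted p = 0.247) or P9 replicate 1 (-0.16, adjusted p = 0.207).

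Cycling cells, sequencing depth, the mitochondrial share of UMIs and microglia markers also differed with age. Clusters led by cell cycle genes held 773 of 2549 and 691 of 2214 microglia-like cells at P9 and 0 of 2829 and 0 of 2893 at P28. These counts give cluster membership. Cells were not scored for the cycle one by one, so 0 does not mean that no P28 cell was cycling. Median UMIs per cell were 3832 and 4070 at P9 and 2295 and 2231 at P28, and summed microglia markers 23713 to 24762 and 35578 to 35847 CPM. The median share of UMIs from mitochondrially encoded genes was 2.895 and 2.966% at P9 and 1.633 and 1.598% at P28. The microglia-like cells of the ages also lay in different clusters. Cluster 0, led by Ddit4 and Upk1b, held 1594 and 1658 P28 and 3 and 1 P9 wild-type cells, cluster 3, led by Zfp691 and Notch2, 766 and 760 P28 and 0 and 1 P9 cells, and cluster 2, led by Vill and Crybb1, 8 and 5 P28 and 1081 and 832 P9 cells. The part of depth, of the mitochondrial share and of these clusters in the results was not tested. Without the cycle-led clusters, the same 17 TCA and 9 fatty acid oxidation genes were lower and 2 of the 3 higher genes were higher, with Acads losing its call (0.15, adjusted p = 0.121). Of all genes tested in that fit, 23.9% were higher and 23.3% lower. Fh1 then had a log2 fold change of -0.98, adjusted p = 3.76e-06, and Idh1 of -1.14, adjusted p = 6.28e-07.

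Within the 6 P9 libraries of all genotypes, cycle-led and other microglia-like cells of the same library could be set side by side, as a description, since the clusters were made from the same counts (CPM without the TMM scaling). In every library 6 of 23 TCA genes were higher in the cycle-led cells and 2 lower, and 2 of 17 fatty acid oxidation genes were higher and 3 lower, where of the 10345 genes with at least 100 UMIs 19.9% were higher and 16.9% lower in every library. Fh1 ranged from 51.5 to 72.8 CPM in cycle-led and 35.7 to 50.6 CPM in other cells. Idh1 went the other way, with 35.2 to 47.3 CPM in cycle-led and 60.97 to 77.00 CPM in other cells. Among the acyl-CoA dehydrogenases, which divide the work by chain length, Acadl ranged from 33.5 to 44.9 CPM in cycle-led and 20.1 to 32.6 CPM in other cells and Acads from 53.6 to 67.7 CPM in cycle-led and 83.5 to 107 CPM in other cells. Acadl was thus higher in cycle-led cells and Acads lower in all 6 libraries. The medium-chain enzyme Acadm was lower in all 6 as well, and the very-long-chain enzyme Acadvl was higher in 2 of 6.

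Of the other pathway genes, 1 of 14 tested neighbours of the cycle was higher at P28 and 7 lower, and 0 of 12 auxiliary oxidation genes were higher and 6 lower. Slc25a10, the dicarboxylate carrier, fell from 27.7 ± 0.669 to 9.91 ± 3.50 CPM (mean ± SD, n = 2 each, adjusted p = 1.37e-05). At pyruvate entry, 4 of 9 were higher and 1 lower, and the kinases of pyruvate dehydrogenase went opposite ways, with Pdk1 rising from 60.01 ± 0.369 to 103 ± 7.78 CPM (adjusted p = 6.31e-07) and Pdk3 falling from 31.6 ± 1.44 to 17.3 ± 0.825 CPM (adjusted p = 8.77e-06). Among 15 genes of fatty acid supply, 3 were higher and 6 lower. Fabp5, a carrier of fatty acids in the cytosol, fell from 20.7 ± 0.623 to 4.48 ± 0.515 CPM (adjusted p = 2.87e-06), and Esrra, an oestrogen-related receptor known to drive genes of oxidative metabolism, rose from 23.7 ± 2.42 to 34.2 ± 1.10 CPM (adjusted p = 0.00368).

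TMRM high cells were compared with TMRM low cells to describe metabolically active microglia. Many members of both pathways were higher in TMRM high cells, led by Acadl and Cpt1a among the fatty acid oxidation genes and by Idh1 and Sdha in the TCA group. With limma on log2 of FPKM plus 1, 14 of 23 TCA genes (60.9%) and 13 of 17 fatty acid oxidation genes (76.5%) were higher and 0 of either lower, against 20.4% higher and 9.84% lower of all genes tested (30.3% in either direction). The median difference was 0.32 for the TCA genes and 0.35 for the fatty acid oxidation genes, beside 0.056 for all genes tested. FPKM summed to 436809 to 541255 in TMRM high libraries and 388966 to 498522 in TMRM low libraries. When each library was rescaled to the same total, 9 TCA and 7 fatty acid oxidation genes were higher and 0 lower, all of them among those called before, and the split over all genes moved from 2189 higher and 1054 lower to 1140 higher and 2264 lower (median -0.11, beside 0.21 for the TCA and 0.18 for the fatty acid oxidation genes). With median centring 12 and 12 were higher, and the split over all genes was 1932 and 1261.

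**Figure D2:**
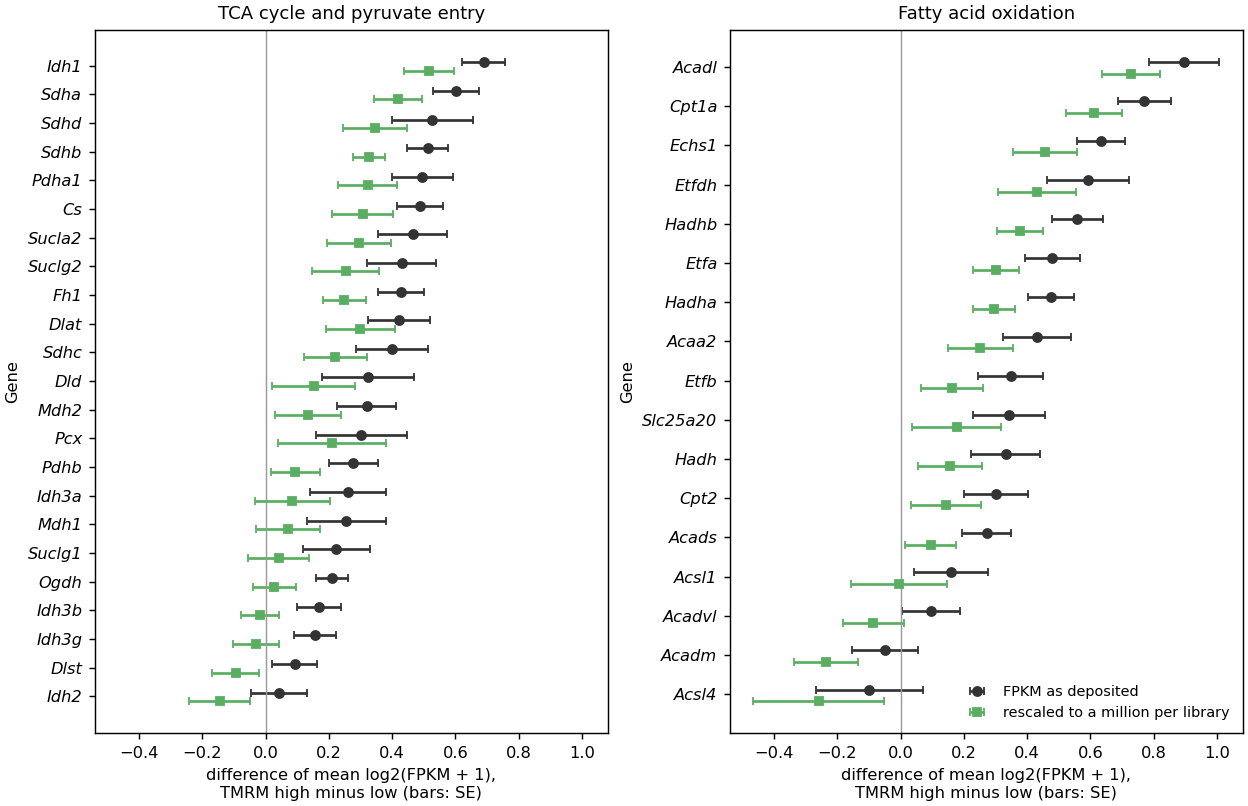
Difference of each member between TMRM high (n = 10, or 9 for Pdha1 and Acsl4) and TMRM low (n = 8) libraries in mean log2 of FPKM plus 1 (x axis; bars are SE), for FPKM as deposited (circles) and after rescaling each library to the same total (squares). All 23 TCA genes lie above 0 as deposited, and rescaling moves every gene to the left.

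Acadl ranged from 16.3 to 35.9 FPKM (median 19.6) in TMRM low and from 37.4 to 45.7 FPKM (median 41.1) in TMRM high libraries, a difference of 0.90 ± 0.11 (SE), adjusted p = 4.02e-06. Cpt1a ranged from 10.4 to 15.3 FPKM (median 12.8) and from 18.6 to 26.4 FPKM (median 22.4) (0.77 ± 0.084, adjusted p = 6.96e-07). Echs1, the short-chain enoyl-CoA hydratase, ranged from 30.99 to 44.96 FPKM (median 39.4) and from 51.97 to 69.3 FPKM (median 59.1) (0.63 ± 0.076, adjusted p = 2.33e-06). At these 3 genes no TMRM low library reached the TMRM high libraries. Etfdh ranged from 8.82 to 22.6 FPKM (median 12.9) and from 16.4 to 24.2 FPKM (median 20.1) with overlap (0.59 ± 0.13, adjusted p = 0.00161). Hadha was higher in every TMRM high than in every TMRM low library (0.48 ± 0.073, adjusted p = 4.58e-05). After rescaling, the differences were 0.73, adjusted p = 5.7e-06 for Acadl and 0.61, adjusted p = 2.68e-05 for Cpt1a.

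In the TCA group, Idh1 ranged from 19.5 to 25.3 FPKM (median 22.99) in TMRM low and from 32.7 to 41.1 FPKM (median 37.5) in TMRM high libraries (difference of 0.69 ± 0.067 (SE), adjusted p = 1.75e-07). Sdha ranged from 60.3 to 87.2 FPKM (median 61.9) and from 89.8 to 115 FPKM (median 98.9) (0.60 ± 0.074, adjusted p = 3.37e-06). Neither gene overlapped between the groups. All 4 subunits of succinate dehydrogenase were called higher, with Sdhd (0.53 ± 0.13, adjusted p = 0.00361) and Sdhb (0.51 ± 0.065, adjusted p = 5.24e-06) next to Sdha, though Sdhc (0.40 ± 0.11, adjusted p = 0.0112) lost its call after rescaling (0.22, adjusted p = 0.11). Cs ranged from 33.2 to 53.2 FPKM (median 39.9) and from 53.96 to 60.9 FPKM (median 57.3) (0.49 ± 0.073, adjusted p = 3.52e-05), Pdha1 from 13.7 to 22.3 FPKM (median 18.6) and from 23.1 to 30.5 FPKM (median 25.3) (0.49 ± 0.10, adjusted p = 0.000678), both without overlap. After rescaling, Idh1 differed by 0.52, adjusted p = 5.27e-05 and Sdha by 0.42, adjusted p = 0.000386.

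Several members gave no call or a call that depended on the setting. Idh2 ranged from 97.9 to 175 FPKM (median 118) and from 117 to 143 FPKM (median 126) (0.042 ± 0.088, adjusted p = 0.76), so the mitochondrial NADP-dependent enzyme was not called where the cytosolic one was. Acadm (-0.05 ± 0.11, adjusted p = 0.761), Acsl1 (0.16 ± 0.12, adjusted p = 0.329) and Acsl4 (-0.10 ± 0.17, adjusted p = 0.698) were not called. Ogdh was called as deposited (0.21 ± 0.052, adjusted p = 0.00418) and not after rescaling (0.028, adjusted p = 0.8) or median centring (adjusted p = 0.0641). Mdh2 (0.32 ± 0.093, adjusted p = 0.0132) and Cpt2 (0.30 ± 0.10, adjusted p = 0.0277) lost their calls after rescaling (adjusted p = 0.371 and 0.366), and Mdh2 also with median centring (0.0749). The other members that lost their calls after rescaling were Sdhc, Pdhb, Suclg2, Slc25a20, Acads, Hadh, Acaa2 and Etfb. The call of Cpt2 was also lost without TMRM low replicate 1 (0.0552), 3 (0.0513), 6 (0.052) or 7 (0.052).

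Transcripts of other cells differed between the sorted fractions. Choroid plexus markers (Ttr, Kl, Folr1 and Enpp2) summed to 34348 FPKM in TMRM low replicate 2 and 6332 FPKM in replicate 7, and to 116.1 to 294.6 FPKM in the other TMRM low libraries. Without these 2 libraries 19 TCA and 12 fatty acid oxidation genes were higher, including all 14 TCA genes called before, and of the fatty acid oxidation genes Slc25a20 lost its call. Of all genes tested in that fit, 22.1% were higher and 9.87% lower. Idh3a, not called with all libraries (0.26 ± 0.12, adjusted p = 0.108), was called without the 2 libraries (0.36, adjusted p = 0.00449) and without replicate 2 alone (0.37, adjusted p = 0.00175). Summed neutrophil markers were 679 to 2373 FPKM in low and 1.55 to 817 FPKM in high libraries, border-associated macrophage markers 111 to 197 and 264 to 381, and cell cycle genes 664 to 869 and 1070.2 to 1282. Their part in the result was not tested.

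All 5 lists of other pathway genes had called members in the higher direction only, with 6 of 14 neighbours of the cycle, 3 of 9 at pyruvate entry, 6 of 13 of fatty acid supply, 6 of 12 auxiliary and 4 of 10 peroxisomal genes. Fabp5 rose from 20.01 ± 5.24 to 139 ± 35.6 FPKM (mean ± SD, n = 8 and 10, adjusted p = 3.22e-10). Me2, the mitochondrial malic enzyme, rose from 9.56 ± 2.82 to 18.6 ± 2.41 FPKM (adjusted p = 0.000137), and Slc25a10 from 8.04 ± 1.53 to 13.7 ± 0.876 FPKM (adjusted p = 1.9e-06).

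Tau-GFP plus cells were compared with Tau-GFP negative cells to describe microglia of the developing brain that carry the GFP. More members were higher than lower in Tau-GFP plus cells, with Idh1 and Fh1 leading in the TCA group and Acadl and Slc25a20 in fatty acid oxidation. In the TCA group 8 of 23 genes were higher (34.8%) and 1 lower, and in fatty acid oxidation 9 of 17 were higher (52.9%) and 2 lower, against 20.7% higher and 16.9% lower of all genes tested (37.7% in either direction). The median log2 fold change was 0.19 over the TCA genes and 0.11 over the fatty acid oxidation genes, beside 0.0072 over all genes tested.

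Idh1 ranged from 68.8 to 90.6 CPM (median 83.6) in negative and from 88.3 to 128 CPM (median 116) in plus libraries (fold change on the log2 scale of 0.49 ± 0.077 (SE), adjusted p = 7.58e-05). Fh1 ranged from 35.3 to 54.1 CPM (median 43.8) and from 53.5 to 69.2 CPM (median 60.3) (0.45 ± 0.088, adjusted p = 0.000533). Dlat, the acetyltransferase core of pyruvate dehydrogenase, ranged from 21.6 to 30.1 CPM (median 26.9) and from 27.2 to 44.6 CPM (median 33.99) (0.37 ± 0.094, adjusted p = 0.00459). The groups overlapped at all 3 genes. Cs (0.22 ± 0.055, adjusted p = 0.0037) and Mdh2 (0.26 ± 0.057, adjusted p = 0.00161) were also called higher. Idh2 (0.0028 ± 0.053, adjusted p = 0.972), Ogdh (-0.022 ± 0.054, adjusted p = 0.779) and Sdha (0.052 ± 0.049, adjusted p = 0.441) were not called. The one lower TCA gene was Dlst, the succinyltransferase of the 2-oxoglutarate dehydrogenase complex (-0.22 ± 0.052, adjusted p = 0.00239).

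Acadl ranged from 28.8 to 56.02 CPM (median 41.6) in negative and from 54.03 to 85.5 CPM (median 59.3) in plus libraries (fold change on the log2 scale of 0.59 ± 0.12 (SE), adjusted p = 0.000951). Etfa ranged from 47.01 to 57.6 CPM (median 50.7) and from 64.2 to 71.6 CPM (median 67.8), with no overlap (0.40 ± 0.053, adjusted p = 1.17e-05). Etfdh (0.43 ± 0.10, adjusted p = 0.00229) and Cpt1a (0.37 ± 0.10, adjusted p = 0.00641) were called higher with overlapping libraries. Slc25a20, the carnitine-acylcarnitine carrier, was called (0.48 ± 0.16, adjusted p = 0.0237), and not without plus replicate 3 (0.35, adjusted p = 0.0501). The lower genes were Acads, which ranged from 38.3 to 52.8 CPM (median 46.5) and from 31.7 to 41.97 CPM (median 37.01) (-0.33 ± 0.074, adjusted p = 0.00189), and Acadm (-0.19 ± 0.071, adjusted p = 0.0411). Acadvl, the very-long-chain dehydrogenase, was not called (0.084 ± 0.10, adjusted p = 0.54).

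Some of these calls lay close to the threshold. Acadm was not called under RLE scaling (adjusted p = 0.0504) or without any one of negative replicates 2, 3, 6 and 8 and plus replicates 1, 2, 3, 7 and 8, where the fold change was between -0.20 and -0.16 and the adjusted p between 0.0501 and 0.0853. Sdhd (0.34 ± 0.12, adjusted p = 0.0339) was not called without any one of negative replicates 5 and 6 and plus replicates 1, 2, 3, 7 and 8, with adjusted p between 0.0564 and 0.0696. Idh3a, not called with all libraries (0.23 ± 0.10, adjusted p = 0.0839), was called without negative replicate 6 (0.26, 0.0467), negative replicate 8 (0.27, 0.0467) or plus replicate 4 (0.27, 0.0296). Pcx (0.38 ± 0.18, adjusted p = 0.101) was called without negative replicate 4 (0.47, 0.0463).

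Markers of other cells rose with the Tau-GFP signal. The 9 border-associated macrophage markers summed to 1265 to 1629.6 CPM in negative and 4189.6 to 10309 CPM in plus libraries, highest in plus replicate 5, and the 8 endothelial markers to 20.7 to 437 and 94.4 to 3612 CPM, highest in plus replicate 3. Summed microglia markers were 58189 to 71313 and 30643 to 46715 CPM, and cell cycle genes 1985 to 2851 and 2585 to 3722 CPM. Without plus replicates 3 and 5, 7 TCA genes were higher and 1 lower, and 5 fatty acid oxidation genes were higher (9 with all libraries; Hadh, Hadhb, Etfb and Slc25a20 lost their calls) and 1 lower (Acads). Of all genes tested, 17.3% were higher and 13.7% lower without these 2 libraries, against 20.7% and 16.9% with all libraries. In that fit Acadl kept its call (0.49, adjusted p = 0.00376), and Slc25a20 (0.35, adjusted p = 0.0671), Sdhd (0.34, adjusted p = 0.0636) and Acadm (-0.16, adjusted p = 0.111) did not.

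The single-cell data give the members' levels in such macrophages, of the brain's borders, here in CPM without the TMM scaling. In both P9 wild-type libraries, 5 of the 17 genes that were higher in Tau-GFP plus cells had more CPM in border-associated macrophage-like than in microglia-like cells, 6 had less and 6 overlapped. Of the 20 members not called in that comparison, 1 had more, 13 had less and 6 overlapped, and of the 3 lower members 2 had less and 1 overlapped. Each side has 2 libraries, so narrow gaps count too. Sdhc, for example, had 96.1 and 96.6 CPM in macrophage-like against 98.5 and 97.1 CPM in microglia-like cells. The same shares over all genes were not computed, and with 2 libraries per side such gaps are common even without a difference. These counts therefore do not show a link between macrophage levels and the Tau-GFP calls. Idh1 had 83.7 and 109 CPM in the macrophage-like cells against 57.00 and 54.01 CPM in microglia-like cells, and Fh1 62.2 and 66.4 against 42.7 and 41.3 CPM. Mdh2 was the reverse, with 138 and 129 against 204 and 200.2 CPM. Acads, which was lower in Tau-GFP plus cells, had 57.7 and 51.2 against 91.4 and 92.8 CPM. In bulk, a change in the share of a cell type and a change of level within cells cannot be told apart.

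Of the other lists, 5 of 18 genes of fatty acid supply were higher in Tau-GFP plus cells and 0 lower. Cd36, a receptor for fatty acids and oxidised lipids, rose from 5.27 ± 2.44 to 208 ± 98.8 CPM (mean ± SD, n = 8 each, adjusted p = 6.72e-09), and is among the 10 leading genes of the border-associated macrophage-like cluster. Fabp5 rose from 4.70 ± 1.74 to 20.9 ± 5.14 CPM (adjusted p = 6.72e-07). In peroxisomal oxidation, which shortens very long chains, 0 of 10 were higher and 4 lower, among them Acox3, an acyl-CoA oxidase, which fell from 139 ± 7.89 to 102 ± 14.3 CPM (adjusted p = 0.000271).

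Cultured microglia in medium were set beside freshly sorted Tau-GFP negative microglia because both stand in the same count table. The study did not set up this contrast, and strain, genotype, age, isolation and culture differ together and cannot be told apart. In the TCA group 15 of 23 genes were higher in culture (65.2%) and 5 lower (21.7%), and in fatty acid oxidation 8 of 17 were higher (47.1%) and 4 lower (23.5%), against 38.2% higher and 39.8% lower of all genes tested (78.0% in either direction). These libraries are also the controls of the IL-33 and Tau-GFP comparisons. The median log2 fold change was 0.25 over the TCA genes and 0.20 over the fatty acid oxidation genes, beside -0.023 over all genes tested.

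The ratio of 2 isocitrate dehydrogenases differed between the cultured and the sorted cells. Idh1 (chr1:65158616-65186479, build GRCm38.p6) ranged from 68.8 to 90.6 CPM (median 83.6) in sorted and from 328 to 363 CPM (median 345) in cultured cells (fold change on the log2 scale of 2.08 ± 0.059 (SE), adjusted p = 3.62e-17). Idh2 (chr7:80094845-80118608) ranged from 209.6 to 248 CPM (median 238) and from 62.4 to 77.00 CPM (median 68.1) (-1.78 ± 0.057, adjusted p = 2.05e-16). The ratio of Idh1 to Idh2 CPM had a median of 4.93 in medium (4.49 to 5.64) and 0.356 in Tau-GFP negative cells (0.292 to 0.403), with 5.55 in IL-33 and 0.481 in Tau-GFP plus libraries. In FPKM the ratio had a median of 0.297 in TMRM high and 0.197 in TMRM low libraries, and in UMIs it lay between 0.160 and 0.229 in all 8 single-cell libraries. Within the count table, every cultured library had a higher ratio than every sorted library. Values in CPM, FPKM and UMIs are on different scales and are not compared with each other.

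**Figure D3:**
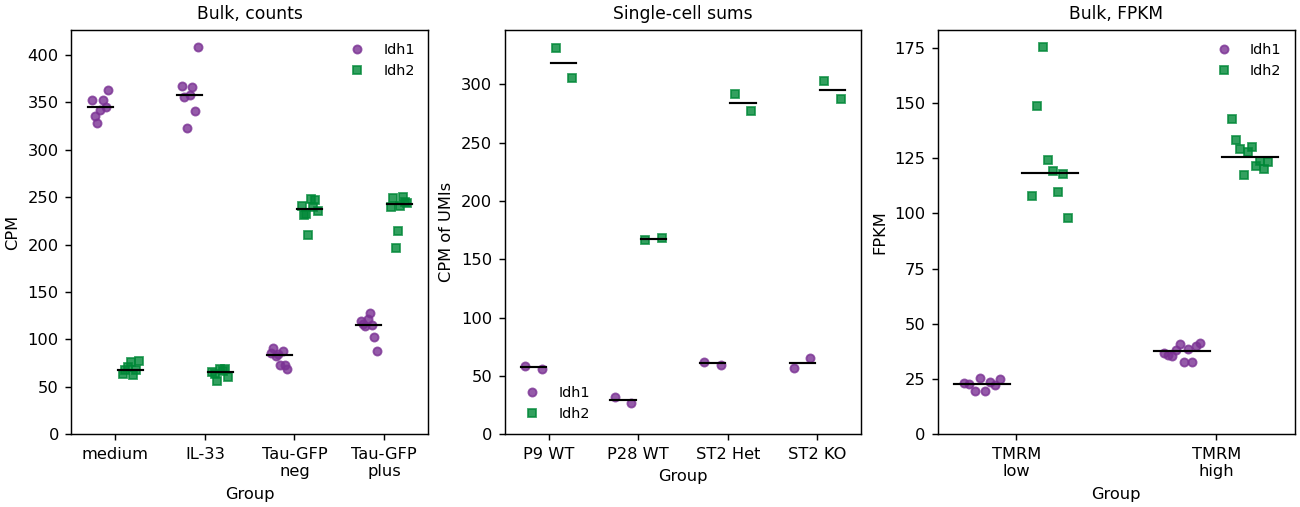
Level of Idh1 (circles) and Idh2 (squares) in each library by group, in CPM of expected counts (left), CPM of UMIs in microglia-like cells (middle) and FPKM (right); black lines are medians, and the y axes start at 0. CPM of expected counts are not divided by length, so the left panel compares each gene between groups: Idh1 is higher and Idh2 lower in the medium and IL-33 cultures than in the Tau-GFP libraries.

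Other paired enzymes also shifted. Succinyl-CoA synthetase joins a common alpha subunit to either Sucla2, which makes ATP, or Suclg2, which makes GTP. Suclg2 ranged from 78.9 to 97.96 CPM (median 84.96) in sorted and from 35.5 to 41.7 CPM (median 37.7) in cultured cells (fold change on the log2 scale of -1.21 ± 0.063 (SE), adjusted p = 6.91e-13), and the ratio of Sucla2 to Suclg2 had a median of 1.79 in medium and 0.683 in Tau-GFP negative cells. Of the trifunctional protein, Hadha ranged from 166 to 204 CPM (median 176) and from 92.1 to 104 CPM (median 99.6) (-0.88 ± 0.052, adjusted p = 4.36e-12), and its beta chain Hadhb was lower as well (-0.52 ± 0.064, adjusted p = 2.91e-07). The chains of the electron transfer flavoprotein parted, with Etfa higher and Etfb lower (-0.56 ± 0.063, adjusted p = 1.03e-07). Slc25a20 ranged from 11.2 to 20.2 CPM (median 16.97) and from 37.1 to 45.3 CPM (median 41.8) (1.28 ± 0.10, adjusted p = 3.79e-10). Dlat (1.07 ± 0.073, adjusted p = 4.74e-11), Cs (0.82 ± 0.05, adjusted p = 9.87e-12), Sdhb (0.79 ± 0.058, adjusted p = 1.51e-10) and Acsl4 (1.03 ± 0.10, adjusted p = 1.19e-08) were higher in culture, each with no overlap. Pcx was lower (-0.80 ± 0.18, adjusted p = 0.000567), and Ogdh (0.054 ± 0.049, adjusted p = 0.323) and Acadm (0.017 ± 0.059, adjusted p = 0.798) were not called.

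**Figure D4:**
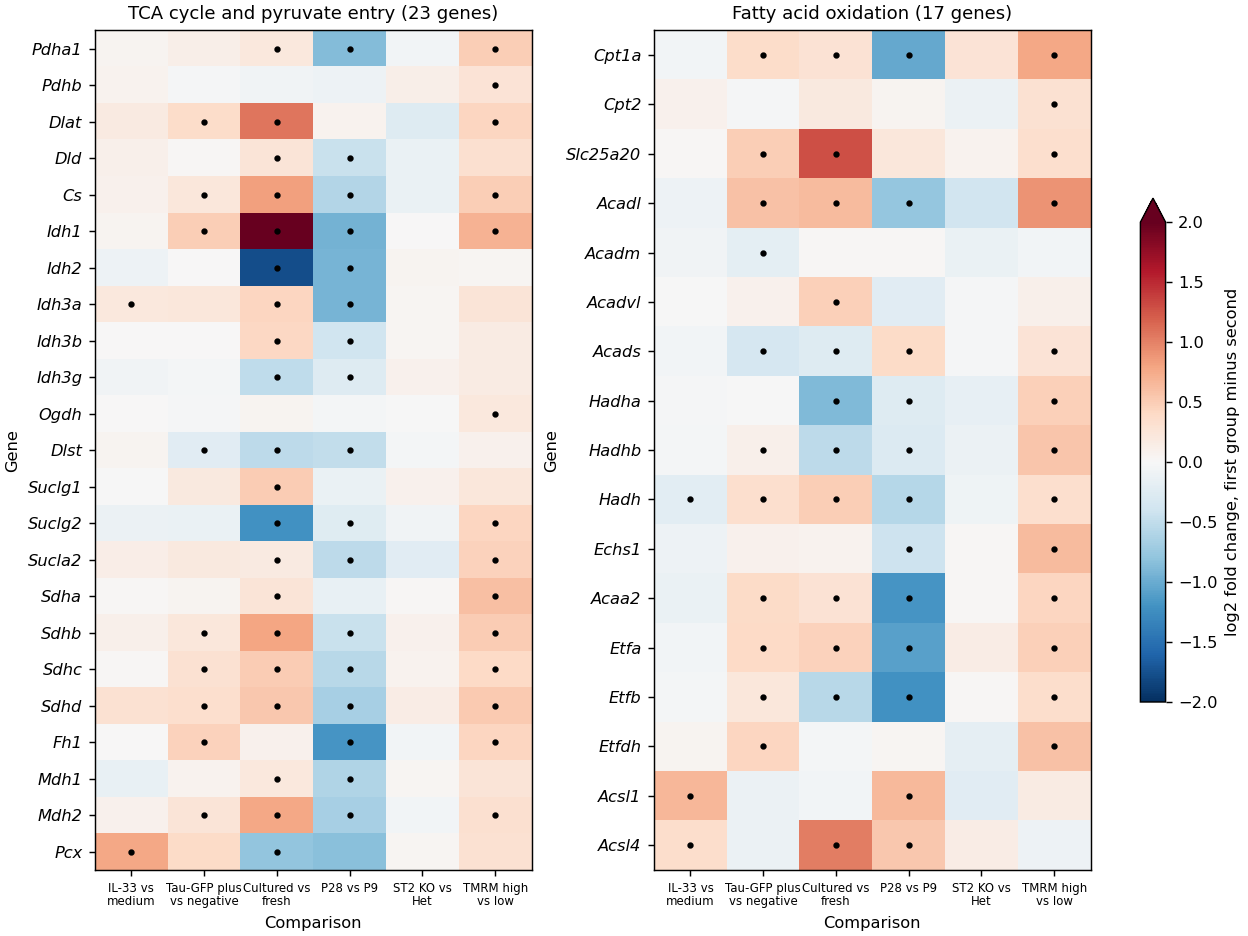
Log2 fold change of each of the 40 members (rows) in the 6 comparisons (columns), with red for higher and blue for lower in the group named first; dots mark an adjusted p under 0.05. The P28 column is blue through most of the TCA group, the TMRM column lies above 0 for 38 of the 40 members with no lower call, and the ST2 column has no dot.

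Set side by side, the pathways shared the direction of their medians in the Tau-GFP, culture, age and TMRM comparisons. Comparisons that use the same control libraries are not independent, and no test of one pathway against the other was made. On the CPM scale the ratio of summed TCA to summed fatty acid oxidation levels was between 2.47 and 2.73 in the cultures and between 1.91 and 2.30 in the Tau-GFP libraries. It was 2.07 and 2.10 at P9 and 1.94 and 1.95 at P28. In FPKM it had a median of 2.28 in TMRM low (2.06 to 2.41) and 2.08 in TMRM high libraries (2.02 to 2.15).

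**Figure D5:**
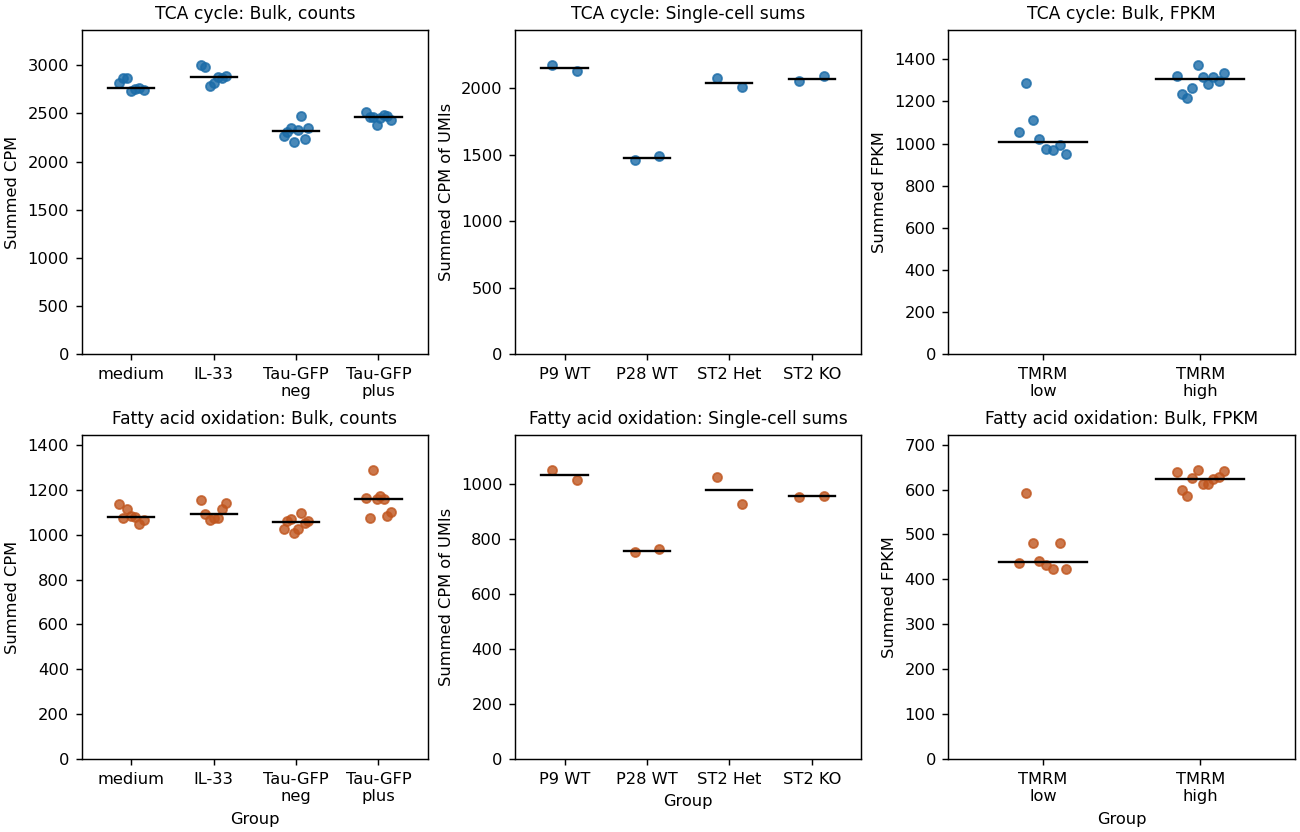
Summed level of the TCA genes (top) and of the fatty acid oxidation genes (bottom) in each library (points) with the group median (lines), in CPM of expected counts, CPM of UMIs in microglia-like cells, and FPKM without Pdha1 and Acsl4, which lack a value in 1 TMRM high library. The P28 libraries lie below all P9 libraries, and 1 TMRM low library, replicate 2, reaches the level of TMRM high.

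As a description over the 30 libraries of the count table, which share 4 kinds of preparation and are not independent points, the log2 CPM of Cs followed that of Idh1 (Pearson's r = 0.97), Sdhb (0.96), Mdh2 (0.95), Dlat (0.94) and Acsl4 (0.92) most closely among the 40 genes. Cpt1a followed Hadh (0.72), Etfa (0.64), Acaa2 (0.64), Sdhc (0.57) and Acadl (0.53). The closest partners of Cs were thus 4 TCA genes and 1 acyl-CoA synthetase, and those of Cpt1a were 4 fatty acid oxidation genes and 1 subunit of succinate dehydrogenase.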

How the data were processed

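Expression was measured in bulk and single-cell libraries of mouse microglia. The deposited count table holds expected counts per gene (Bowtie2 and RSEM are named in the submitters' processing notes), of which 25.3% are not whole. They were rounded, and 30 of 35 columns were matched to samples and used, while 5 were not. The deposited single-cell matrix holds UMI counts (Cell Ranger, per the submitters' processing notes). The deposited tables of TMRM libraries hold FPKM values (TopHat2 2.0.10 and Cufflinks 2.0.2, per the submitters' processing notes). The build is given there as mm10, with other versions not given in the sources used here.

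From these, edgeR 4.0.16 (TMM, quasi-likelihood test, default filter on low counts; R 4.3.3) was run on counts. Cells were clustered when they had 500 genes or more and a mitochondrial share below 10% (scanpy 1.11.5, Leiden resolution 1), doublets were not called, and UMIs of microglia-like cells were summed per library, with all 8 libraries in 1 fit. Member levels in CPM carry edgeR's TMM scaling, and marker sums, Il1rl1 and levels within cell classes are plain CPM. limma 3.58.1 was run on log2(FPKM + 1) of genes whose mean reached 1 FPKM. Such differences understate the change of low genes. Values with a failed status were set missing, and 1 TMRM high library, replicate 8, lacks 500 symbols, Pdha1 and Acsl4 among them, so that these have n = 9. Adjusted p-values (Benjamini-Hochberg, over all genes tested) under 0.05 were called. SE is the size of edgeR's log2 fold change over the root of its F. The edgeR and limma fits were tested on simulated data with known changes. Across the 6 comparisons they recovered 8.2% to 40.3% of 1.25-fold changes, 46.3% to 76.7% of 1.5-fold changes and 63.6% to 92.3% of 2-fold changes. The clustering, the naming of cells, the promoter search and DESeq2 were not tested in this way.

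The members and lists were chosen with earlier results of these data known. Named members are up to 4 per pathway and direction with the largest change among those called, the smallest p where none was called, and 16 fixed enzymes. Others (Etfdh at P28; Sdhb, Sdhc, Sdhd and Hadha's partners) were chosen after their values were seen, to give complexes whole or because single libraries decided a call. Genes of the other lists are named where called. DESeq2 1.42.0, other scalings, filters and pseudocounts, a replicate block and leaving out each library were the alternatives, and leaving out libraries with transcripts of other cells was added after seeing the data.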

Additional observations from a re-analysis of the deposited data

Results flagged for a closer look

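In groups of 7 to 10 libraries, 29 of 252 member levels and pathway sums had a highest or lowest library that stood far from the rest by Dixon's criterion. Chance flags about 1 in 20 such groups, and levels of one library are not independent of each other.

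TMRM low replicate 2, the library with the highest choroid plexus signal, was the highest of its group in FPKM for Sdha (87.16), Suclg1 (56.54), Mdh1 (119.0), Idh3a (30.46), Acadm (53.53), Acaa2 (50.44), Etfa (46.69), Etfdh (22.56) and the summed fatty acid oxidation genes (591.3). TMRM low replicate 3 was highest for Ogdh (34.86), Mdh2 (146.7) and Slc25a20 (16.48) and lowest for Dlat (2.16). In TMRM high cells, replicate 6 was lowest for Idh3a (15.15) and replicate 2 for Sdhc (30.49).

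Tau-GFP plus replicate 3, the library with the highest endothelial signal, was the highest of its group in CPM for Pdha1 (136.7), Hadh (71.05), Etfdh (61.2) and the summed fatty acid oxidation genes (1288). Tau-GFP plus replicate 7 was highest for Dlst (150.2) and replicate 1 for Pcx (30.82). In Tau-GFP negative cells, replicate 6 was highest for Pdhb (94.27) and Acaa2 (47.14), and replicate 4 was lowest for Idh2 (209.6).

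In the cultures, the flagged levels in CPM were Ogdh (230.2) and Acsl4 (91.17) in medium replicate 3, Sdhb (188.5) in medium replicate 2, Etfa (89.12) in medium replicate 1 and Sdhc (50.91) in IL-33 replicate 1.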

How the results depend on the processing

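No named member that was called changed direction under any alternative run. Against IL-33's 1 lower member, DESeq2 and RLE scaling each gave 2, and leaving out 1 library gave 1 to 2 lower and 4 to 5 higher. Leaving out 1 library gave 13 to 18 higher and 2 to 3 lower in Tau-GFP plus cells, 23 to 24 and 9 in culture, 3 and 23 to 26 at P28, 25 to 32 and 0 in TMRM high cells, and 0 and 0 in ST2 KO libraries. Where this left 1 library in a group, it was assumed to vary like the others. Rescaling FPKM to the same total left 16 of 27 members higher in TMRM high cells. Replicate numbers are shared between groups, but not every numbered pair deviated together, so they were not taken as pairs. In the Tau-GFP comparison, plus replicates 1, 5, 6 and 8 deviated most like the negative library of the same number. Plus replicates 2, 3, 4 and 7 deviated most like another negative library. The labels do not say whether these libraries were pairs. With the replicate block, higher and lower members numbered 4 and 1 for IL-33, 16 and 3 for Tau-GFP and 23 and 9 for culture. They numbered 3 and 26 for P28, 0 and 0 for ST2 KO and 20 and 0 for TMRM. The TMRM fit kept 8 numbered pairs, and Ogdh (0.19, adjusted p = 0.0597) and Cpt2 (0.30, adjusted p = 0.123) lost their calls. Over all genes that fit called 1494 higher and 781 lower of 10715, against 2189 and 1054 of 10714 in the main fit. Single-cell libraries number 2 per group, which limits the ST2 and age comparisons, and the depth of the FPKM libraries is unknown.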
